A study of Gallus gallus with 4 samples.

Results

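The mediolateral array at Hamburger-Hamilton stage HH30 compared the medial and lateral sides of the chick optic tectum, the roof of the midbrain, where axons of the retina end in a map. RNA of 60 pieces, from tecta cut along this axis, was labelled with Cy5 and RNA of 60 pieces of the opposite side with Cy3, and both were hybridised to 1 two-colour array. The study held 3 further arrays of the same kind, all of chick embryos with no strain, age beyond the stage, or treatment named in the labels: 1 mediolateral array at HH35 and 1 anteroposterior array each at HH35 and HH37. There was no replicate and no dye swap, so no test between the pools could be made, and uneven labelling by the dyes and a difference between the pools cannot be told apart. The array was chosen by its title, as 1 of 4, and all of its 42034 gene probes were taken. In these pools, fewer cells of a type and less RNA per cell cannot be told apart.

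In the neural tube the roof plate secretes Wnt and BMP proteins and the floor plate secretes Sonic hedgehog, and these opposing signals set dorsal and ventral cell identities. In the tectum the medial edge lies next to the dorsal midline and the lateral edge next to the ventral midbrain. EphB receptors, ephrin-B ligands and Wnt3 are known as cues of the mediolateral retinotectal map, and EphA receptors and ephrin-A ligands as cues of the anteroposterior one.

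Which channel held the medial pool was not settled. The dye labels named Cy5 as medial and Cy3 as lateral. The authors' deposited table gave a medial over lateral ratio for each probe that ran with Cy3 over Cy5. Across 28274 measured features its log2 had a Pearson r of -0.83 with log2 Cy5 over Cy3, and 88.8% of the features had the opposite sign. Among the features at least 2-fold apart this was so for 90 of 94. These are ratios of the same spots of 1 array, so the correlation describes only the direction of the columns. Past 1.5-fold, the roof plate and dorsal list below had 4 of 15 measured genes in Cy3 and 0 in Cy5. The ventral list had 9 of 15 in Cy5 and 0 in Cy3. Of all features, 1.49% were this far in Cy5 and 1.18% in Cy3. If dorsal genes mark the medial edge, the list counts run in the direction of the authors' ratio, but that was not tested. Both lists were chosen with earlier results of these data known, so their counts cannot settle the direction. On the anteroposterior array at HH35, with the same 2 dyes, 10 of 15 ventral and 11 of 15 dorsal genes lay on the Cy5 side. The dye labels and the ratio remain in conflict. All values below are therefore given by channel, as log2 of Cy5 over Cy3, and a value above 0 means a higher level in the Cy5 pool.

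The median foreground intensity was 135 in Cy5 and 130 in Cy3. A channel was taken as well above background where the mean of the spot exceeded the median of its local background by more than 2.6 SD of that background. This held for 50.7% of gene probes in Cy5 and 70.0% in Cy3, and for 70.1% in either channel. Genes with several probes were represented by the brightest, which left 28275 measured features, 7775 of them genes with a symbol. Repeated control spots had a log2 SD of 0.155 within this array, which covers neither labelling nor sampling of embryos. Both pools had levels well above background for PAX7, PAX5, EN1, DMBX1 and MEIS2, transcription factors of the tectum and midbrain.

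Most features differed little between the pools. The median log2 ratio was -0.02, and 90% of features lay between -0.38 and 0.38. At least 2-fold differences were found for 76 features higher in Cy5, 0.269% of those measured, and for 18 higher in Cy3, 0.0637%. Cy5 and Cy3 counts were 61 and 30 after median centring without loess, 187 and 207 after plain background subtraction, and 259 and 648 in the series' value table. Of the genes with a symbol, 33 were at least 2-fold higher in Cy5, 0.424% of 7775, and 4 in Cy3, 0.0514%. At 1.5-fold the counts over all features were 420 in Cy5, 1.49%, and 335 in Cy3, 1.18%. At 3-fold they were 13, 0.046%, and 2, 0.00707%. Near the threshold, CDH13 stood at 1.01 and SEMA6D at 0.995, which is just under 2-fold, and BPIFB2 stood just short of it on the Cy3 side at -0.99.

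The genes furthest to the Cy5 side were PAX2, NKX6-1 and several neuropeptide genes. PAX2, a paired-box transcription factor of the midbrain-hindbrain boundary, had a normalised intensity of 877 in Cy5 and 226 in Cy3, a 3.87-fold difference and the highest ratio of any gene with a symbol. SST7, a somatostatin-family gene, had 1188 in Cy5 and 364 in Cy3. The peptide gene NPY had 1114 in Cy5 and 392 in Cy3. These 3 genes headed the Cy5 side, at log2 ratios of 1.95, 1.71 and 1.51. NKX6-1, a homeobox factor of the ventral neural tube, had 3872 in Cy5 and 1383 in Cy3. GRP, gastrin-releasing peptide, had 1014 in Cy5 and 362 in Cy3. GABRQ, a subunit of the GABA-A receptor, had 1225 in Cy5 and 439 in Cy3. In each case the Cy5 pool was more than 2.7-fold above the Cy3 pool. With the mean of the anteroposterior arrays subtracted as a dye estimate, the log2 ratio became 0.37 for PAX2, 0.94 for SST7 and 0.01 for GRP. It was 1.34 for NPY, 1.28 for NKX6-1 and 1.73 for GABRQ. That mean also holds any difference between the posterior and anterior pools. PAX2, for example, stood at 3.0 on the anteroposterior array at HH35 and at 0.16 at HH37. Here and below, values with this mean subtracted are therefore not corrected for dye alone. Of the 174 named features, 137 kept their sign under this subtraction, and its result is printed for some genes only. FABP9 stood at 1.35 and MYBPC3, a muscle myosin-binding protein, at 1.34, both from spots of uneven brightness described below.

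The Cy3 pool had higher levels of the teneurin TENM3, of the roof plate ligand WNT3A and of the BMP antagonist NOG. TENM3, a transmembrane protein of synaptic partner matching, had 711 in Cy5 and 1622 in Cy3, 2.28-fold higher in Cy3. WNT3A, a ligand of the dorsal midline, had 472 in Cy5 and 1033 in Cy3. NOG, the secreted BMP antagonist noggin, had 866 in Cy5 and 1805 in Cy3. These 3 genes, at -1.19, -1.13 and -1.06, were the only ones with a symbol and an even spot past 2-fold on the Cy3 side. PEX11A, the lowest gene by computed ratio at -2.83, had a Cy5 channel not well above background and was at least 7.12-fold higher in Cy3 by the mean of its spot, while the medians of its pixels gave -0.03. SVEP1, an extracellular matrix protein, stood at -0.96, the Ras-like gene RASL11AL at -0.87, SERPINF1, a secreted serpin, at -0.86 and MTCL1, a microtubule cross-linking factor, at -0.85. A second MTCL1 probe gave -0.34.

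**Figure D1:**
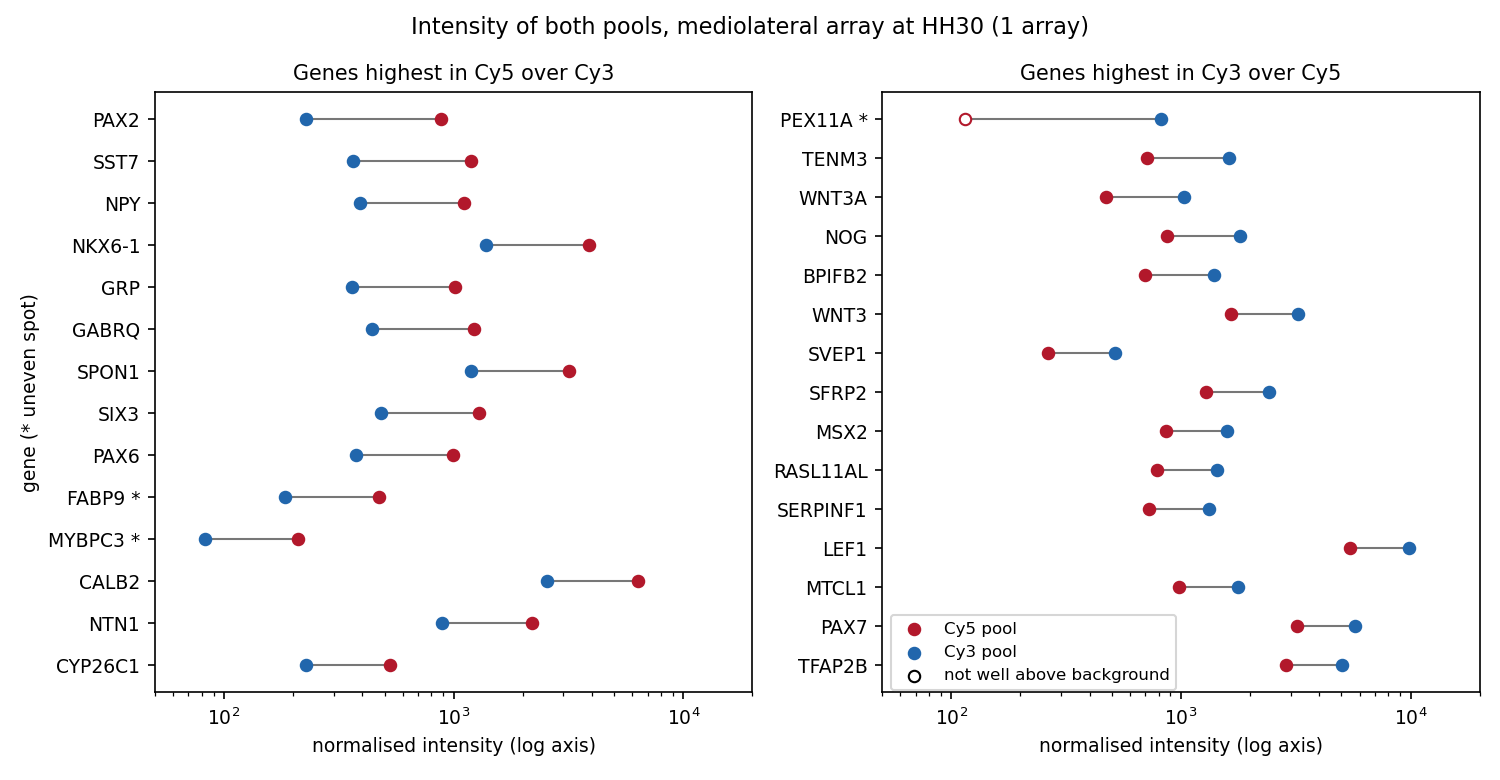
Normalised intensity of genes furthest to the Cy5 side (left) and furthest to the Cy3 side (right) on the mediolateral array at HH30, with the Cy5 pool in red and the Cy3 pool in blue on a log axis. PAX2 shows the widest gap among genes with even spots, 877 in Cy5 against 226 in Cy3. An open circle is a channel not well above background and asterisks mark uneven spots.

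Of the roof plate and dorsal midbrain genes, 15 were measured of 16 with a probe, and WNT1 was not measured. On the Cy5 side of 0 lay 5 and on the Cy3 side 10, against 47% and 53% of all features. The list's median was -0.10. At 1.5-fold, 0 were higher in Cy5 and 4 in Cy3. WNT3, the Wnt ligand known to act on retinal axons in the tectum, had 1656 in Cy5 and 3230 in Cy3, a log2 ratio of -0.96. MSX2, a homeobox target of BMP signalling in dorsal midline cells, had 863 in Cy5 and 1593 in Cy3. PAX7, a dorsal midbrain paired-box factor, had 3185 in Cy5 and 5703 in Cy3. With WNT3A, these were the 4 past 1.5-fold, all in Cy3. DRAXIN, a secreted repellent of commissural axons, stood at -0.45, and the paired-box gene PAX3 at -0.29. The BMP ligands lay close to 0, with BMP5 at -0.16, BMP4 at -0.10 and BMP7 at -0.07. On the Cy5 side were WNT4 at 0.33, the R-spondin RSPO3 at 0.13, the zinc-finger gene ZIC2 at 0.07 and LMX1B at 0.07. RSPO2 was not well above background in Cy5.

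The ventral midbrain and floor plate genes lay the other way. Of the 15 measured, 14 were on the Cy5 side, and their median was 0.63. In Cy5, 9 were at least 1.5-fold and 5 at least 2-fold higher, and 0 were so in Cy3. TH, of 16 with a probe, was not measured. SPON1, the floor plate matrix protein F-spondin, had 3181 in Cy5 and 1184 in Cy3. NTN1, the floor plate axon cue netrin-1, had 2184 in Cy5 and 890 in Cy3, a log2 ratio of 1.30, while a dimmer NTN1 probe had 147 in Cy5 and 119 in Cy3, at 0.30. The NTN1 ratio became 0.37 with the anteroposterior mean subtracted. The secreted ligand SHH had 1293 in Cy5 and 727 in Cy3, 1.78-fold higher in Cy5. Other genes of the hedgehog pathway differed among themselves. HHIP, a membrane inhibitor of hedgehog ligands, stood at 1.12, and the receptor PTCH1 stood at 0.19. GLI1, the 1 member on the Cy3 side at -0.16, was not well above background in Cy5. Of the ventral transcription factors, NKX6-2 stood at 1.09, ISL1, of motor neurons, at 0.99 and FOXA2, of the floor plate, at 0.59. The FOXA2 spot was dim, with 141 in Cy5 and 94 in Cy3. PITX3, of dopaminergic neurons, stood at 0.45, SIM1 at 0.25 and NKX2-2 at 0.12. PITX3, SIM1, PTCH1, NKX2-2 and GLI1 were within 1.5-fold.

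Genes of the isthmus, the organiser between midbrain and hindbrain, and of the hindbrain also lay mostly on the Cy5 side. Of 12 measured, 10 lay on the Cy5 side and 2 on the other. Their median was 0.38, with 2 at least 2-fold higher in Cy5. GBX2, a homeobox gene of the anterior hindbrain, had 1579 in Cy5 and 768 in Cy3. FGF8, the ligand of the organiser, had 249 in Cy5 and 145 in Cy3, a log2 ratio of 0.78. EN1, a homeobox gene graded along the tectum, had 2141 in Cy5 and 1458 in Cy3. The hindbrain gene HOXA2 stood at 0.83, from a dim spot with 170 in Cy5 and 96 in Cy3. The FGF-responsive genes ETV5, IL17RD and DUSP6 stood at 0.44, 0.32 and 0.24, and PAX5 at 0.20. SPRY4 at 0.16 and HOXB1 at -0.02 were not well above background in Cy5. With the mean of the anteroposterior arrays subtracted, EN1 turned to -0.30.

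Of 7 measured genes of the diencephalon and forebrain, 5 were on the Cy5 side and 4 of them at least 2-fold, with a list median of 1.08. SIX3, a homeobox gene of the anterior forebrain, had 1293 in Cy5 and 485 in Cy3, and its log2 ratio of 1.42 became 0.83 with the anteroposterior mean subtracted. PAX6, a paired-box gene of the forebrain and its boundary with the midbrain, had 995 in Cy5 and 376 in Cy3. NKX2-1, of the ventral forebrain, had 269 in Cy5 and 127 in Cy3. EMX2, which is also expressed in the tectal roof, lay on the Cy3 side at -0.77 and was named after its value was seen, with 5591 in Cy5 and 9531 in Cy3. How much tissue next to the tectum was in either pool was not tested. The 4 measured markers of mesencephalic trigeminal neurons, sensory cells beside the dorsal midline, lay near 0, among them TLX3 at 0.10 and TLX1 at 0.02.

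**Figure D2:**
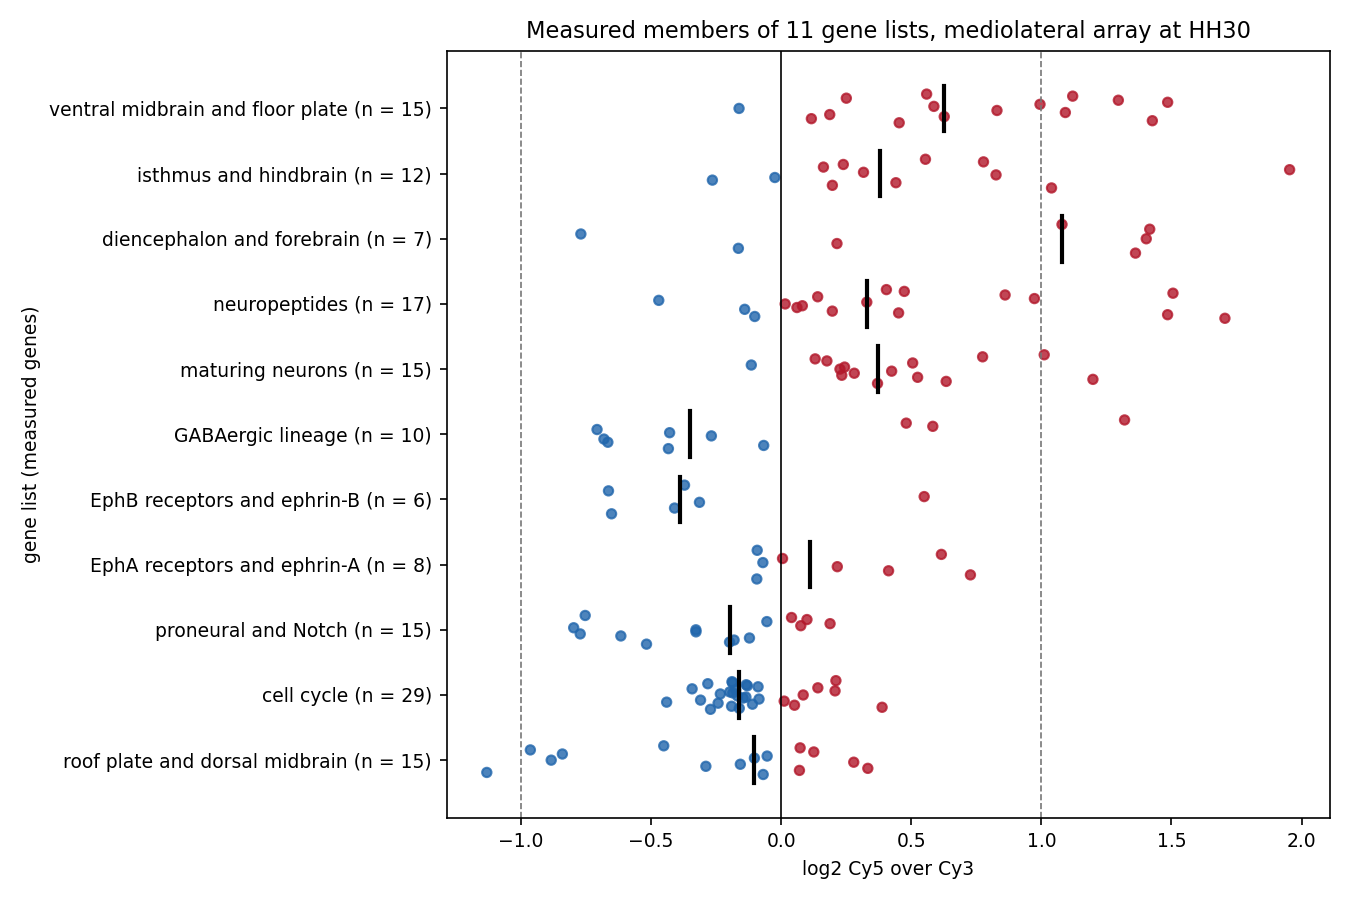
Log2 Cy5 over Cy3 of each measured gene of 11 lists on the mediolateral array at HH30, red on the Cy5 side and blue on the Cy3 side, with a black bar at the list median and dashed lines at 2-fold. The ventral, isthmic and forebrain lists reach 1.49, 1.95 and 1.42 on the Cy5 side, while the dorsal list reaches -1.13 on the Cy3 side.

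Among the guidance families, EphB receptors lay on the Cy3 side. All 4 measured EphB receptors did so, and the 6 members of the list split 1 to 5 between Cy5 and Cy3, with a median of -0.39. EPHB2 had 3462 in Cy5 and 5484 in Cy3, a log2 ratio of -0.66. EPHB3, at -0.65, was 1.57-fold higher in Cy3. EPHB1 had 9062 in Cy5 and 12036 in Cy3, at -0.41, and turned to 0.28 when the anteroposterior mean was subtracted. EPHB6, a kinase-dead member, stood at -0.31. The ligands were split, with EFNB1 at -0.37, 2405 in Cy5 and 3110 in Cy3, and EFNB2 at 0.55, 367 in Cy5 and 251 in Cy3. EPHB2 and EPHB3 were past 1.5-fold, and 0 of the 6 were past 2-fold.

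The EphA family showed no common side. The 8 measured members split 5 to 3 between Cy5 and Cy3, with a median of 0.11, and EPHA1 was not measured. EPHA5 had 1369 in Cy5 and 827 in Cy3, at 0.73, and EPHA6 had 492 in Cy5 and 321 in Cy3, at 0.62. These were the 2 past 1.5-fold. EPHA3, with 3577 in Cy5 and 3564 in Cy3, was even between the pools at 0.01, whereas on the anteroposterior arrays it stood at -2.46 at HH35 and -1.71 at HH37. EPHA4 and EPHA7 both stood at -0.09. Of the ligands, EFNA6 stood at 0.41, EFNA2 at 0.22 and EFNA5 at -0.07.

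Of 5 measured teneurins and latrophilins, which bind each other across synapses, TENM3 was the 1 member past 1.5-fold. TENM1 stood at 0.27 and TENM2 at 0.15, and the latrophilins ADGRL3 and ADGRL2 at 0.04 and -0.02. Among 29 other axon guidance genes, 11 lay toward Cy5 and 18 toward Cy3, and the median was -0.04. SEMA6D, a transmembrane semaphorin, had 1759 in Cy5 and 882 in Cy3. PTPRO, a receptor phosphatase that acts on Eph receptors, had 1096 in Cy5 and 1706 in Cy3, at -0.64. These were the only guidance genes past 1.5-fold in this list. RYK, a receptor of Wnt ligands, stood at -0.52 and the adhesion molecule NRCAM at -0.51. PTPRO turned to 0.25 and NRCAM to 0.14 with the anteroposterior mean subtracted, and SEMA6D became 1.68. Of 20 cadherins and protocadherins, 12 were on the Cy5 side, and PCDH17 at 1.01 and CDH13 at 1.01 were past 2-fold, followed by PCDH1 at 0.72 and CDH7 at 0.48. Another PCDH17 probe gave 0.55.

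The list of other Wnt ligands, receptors and modulators, which leaves out WNT3A, WNT3 and WNT4 of the roof plate list, had a median of -0.01, with 15 members on the Cy5 side and 16 on the Cy3 side. At 1.5-fold, 1 of the 31 was higher in Cy5, SFRP1, and 4 were higher in Cy3. LEF1, a transcription factor that carries the Wnt signal, had 5428 in Cy5 and 9817 in Cy3. AXIN2, a target and inhibitor of the pathway, had 397 in Cy5 and 660 in Cy3. SFRP2, a secreted modulator, had 1280 in Cy5 and 2406 in Cy3, whereas its relative SFRP1 had 2089 in Cy5 and 1086 in Cy3. The log2 ratios of these genes were -0.85, -0.73, -0.91 and 0.94. In the same order they became -0.14, -0.24, -0.58 and 0.05 with the anteroposterior mean subtracted. The fourth member past 1.5-fold in Cy3 was ROR1, a receptor of Wnt ligands, at -0.66, named after its value was seen.

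In the BMP and TGF-beta pathway, 10 of 23 members lay toward Cy5 and 13 toward Cy3, and the median was -0.14. NOG was past 2-fold in Cy3. The ligand TGFB2 had 5292 in Cy5 and 8019 in Cy3, at -0.60, BMP2 stood at -0.51 and the BMP target ID3 at 0.42. TGFB2 turned to 0.22 and ID3 to -0.13 with the anteroposterior mean subtracted, and BMP2 became -0.32. In the retinoic acid pathway, CYP26C1, which breaks down retinoic acid, had 528 in Cy5 and 228 in Cy3, 2.32-fold higher in Cy5. CRABP1, a retinoic acid binding protein, had 1408 in Cy5 and 829 in Cy3. The receptor RARA stood at -0.37 and the retinol transporter STRA6 at -0.33. Among FGF genes other than FGF8, FGF1 stood at 0.83 and FGF14, an intracellular member, at 0.66, while the receptors FGFR2 and FGFR3 stood at -0.63 and -0.42. Subtracting the anteroposterior mean gave -0.06 for FGFR2, 0.31 for FGFR3 and 1.11 for FGF14.

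Neuropeptide genes were mostly on the Cy5 side, 14 of 17 against 3, with a median of 0.33 and with 5 past 1.5-fold and 3 past 2-fold in Cy5. That median became 0.04 with the anteroposterior mean subtracted. After SST7, NPY and GRP came the opioid precursors. PNOC had 1534 in Cy5 and 781 in Cy3, and PENK had 1646 in Cy5 and 906 in Cy3. VIP stood at 0.47, POMC at 0.45, ADCYAP1 at 0.33, NMB at 0.20, GAL at 0.14, CRH at 0.06 and CCK at 0.02. The same subtraction turned POMC to -0.04 and ADCYAP1 to -0.29, while PENK became 1.35 and VIP 1.32. NTS at 0.40, AGRP at 0.08 and PTHLH at -0.10 were not well above background in Cy5. The other somatostatin gene lay opposite to SST7. SST1 had 13821 in Cy5 and 19145 in Cy3, at -0.47, and turned to 0.12 with the anteroposterior mean subtracted. The probes of TAC1, the substance P precursor, disagreed. The probe that was brightest over the 4 arrays had 238 in Cy5 and 263 in Cy3, at -0.14, and the other had 1072 in Cy5 and 343 in Cy3, at 1.64.

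Genes of maturing neurons were higher in Cy5 as well, 14 of 15 by sign, and the list median was 0.37. GAP43, a growth cone protein, had 47018 in Cy5 and 23330 in Cy3, at 1.01. VAMP2, a synaptic vesicle protein, stood at 0.77 and the neurofilament gene NEFL at 0.63. In all 4 were past 1.5-fold in Cy5 and 0 in Cy3. Genes past 2-fold that were named only after their values were seen included further proteins of neurons and synapses, SYT4 at 1.12, SNCB at 1.09, LRRTM4 at 1.07, SYNDIG1 at 1.06, RAB3B at 1.05 and KCNIP4 at 1.03, besides HOXA3 at 1.19, SERPINI1 at 1.14 and SULF2 at 1.02. Another LRRTM4 probe gave 0.02. The HOXA3 spot was dim, with 209 in Cy5 and 92 in Cy3.

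The GABAergic lineage list was split, 3 members toward Cy5 and 7 toward Cy3. Its median of -0.35 turned to 0.0939 with the anteroposterior mean subtracted. Its fate-setting transcription factors lay on the Cy3 side. TAL2 had 3162 in Cy5 and 5162 in Cy3, at -0.71, and TAL1, which blood cells also express, had 1282 in Cy5 and 2034 in Cy3, at -0.67. The same subtraction gave -0.58 for TAL2 and -0.05 for TAL1. The calcium-binding protein PVALB stood at -0.68. CALB2, calretinin, lay far to the other side with 6376 in Cy5 and 2554 in Cy3, at 1.32. Among 15 glutamatergic and tectal transcription factors, 5 were on the Cy5 side and 10 on the Cy3 side. NR2F2, an orphan nuclear receptor, had 12846 in Cy5 and 6503 in Cy3. TFAP2B had 2868 in Cy5 and 5015 in Cy3, at -0.81, and LHX2 stood at -0.54. Subtracting the anteroposterior mean turned TFAP2B to 0.04 and gave -0.28 for LHX2 and 2.32 for NR2F2.

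Proneural and Notch genes lay mostly in Cy3, 11 members against 4 toward Cy5. The median was -0.20, with 0 past 1.5-fold in Cy5 and 4 in Cy3. HES6 had 5224 in Cy5 and 9076 in Cy3, at -0.80. The Notch ligand JAG1 had 1223 in Cy5 and 2061 in Cy3, at -0.75. The ligand DLL1 stood at -0.62. In the progenitor list, 4 of 14 were on the Cy5 side and 10 on the Cy3 side. The Notch target HES5 stood at -0.70 and NOTCH1 at -0.45, with its other probes at -0.43 and -0.48. PAX6, which is also in this list, lay furthest the other way at 1.40, past 2-fold, and the glutamate transporter SLC1A3 stood at 0.38. Cell cycle genes had smaller ratios, with 7 of 29 on the Cy5 side, 22 on the Cy3 side, a median of -0.16 and 0 past 1.5-fold in either channel. BIRC5 stood at -0.44, PCNA at -0.34, GMNN at -0.31 and TYMS at 0.39.

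Markers of other cell types were measured beside these results. Medians were 0.10 for 7 glial markers, 0.16 for 5 of blood, 0.18 for 10 of endothelium, -0.20 for 13 of meninges and fibroblasts, -0.01 for 5 of pericytes, 0.04 for 6 of microglia and 0.06 for 9 of muscle and cartilage. For endothelium 8 of 10 were on the Cy5 side, led by SOX18 at 0.39, VWF at 0.31 and ERG at 0.31. For meninges 9 of 13 were on the Cy3 side. The collagen gene COL1A2 had 16038 in Cy5 and 23810 in Cy3, at -0.57, TWIST2 stood at -0.52, LUM at -0.51 and DCN at -0.47, and 0 of the 13 were past 1.5-fold. AQP4, the water channel of astroglia, stood at 0.97. ACAN, the proteoglycan aggrecan, had 663 in Cy5 and 299 in Cy3, at 1.15, and ACTC1 stood at 0.89, while COL2A1 of cartilage stood at 0.22 and the muscle gene MYH1 was not well above background in Cy5. The part of these cells in the differences between the pools was not tested.

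The mediolateral array at HH35, another pair of pools with the same dye labels, is given beside it. Across 25291 features measured on both arrays, which share probes and dyes, Pearson's r was 0.26, and 59.4% lay on the same side of 0. Of the features at least 2-fold higher in Cy5 at HH30, 66 were measured at HH35, 42 of them on the Cy5 side, where 45.6% of all features lay, and 1 was past 2-fold there, against 0.0395% of all. Of those at least 2-fold higher in Cy3, 16 were measured, 14 lay on the Cy3 side and 3 were past 2-fold, against 0.0316% of all. Of all 28584 features measured at HH35, 15043 lay on the Cy3 side. Among genes with a symbol, 19 of the 32 measured from the Cy5 side and 3 of 4 from the Cy3 side kept their side. TENM3 stood at -1.19 at HH30 and -1.45 at HH35. WNT3A stood at -1.13 at HH30 and -0.69 at HH35, and DRAXIN at -0.45 and -0.90. On the Cy5 side PAX2 stood at 1.95 and 0.93, NKX6-1 at 1.49 and 0.71, NTN1 at 1.30 and 0.87 and CYP26C1 at 1.21 and 0.64, at HH30 and HH35.

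Other genes lay near 0 at HH35 or on the other side of it. NPY stood at 1.51 at HH30 and 0.05 at HH35, and GABRQ at 1.48 and -0.15. CALB2 stood at 1.32 at HH30 and -0.30 at HH35. NR2F2, at 0.98 at HH30, stood at -0.91 at HH35, and GBX2, at 1.04, stood at -0.64. From the Cy3 side, NOG was at -1.06 at HH30 and 0.05 at HH35, and MSX2 at -0.88 and 0.37. By list, the ventral genes had medians of 0.63 at HH30 and 0.25 at HH35, and the dorsal genes of -0.10 and -0.38. The list of maturing neurons had 14 of 15 on the Cy5 side at HH30 and 14 of 15 on the Cy3 side at HH35, with medians of 0.37 and -0.39. The log2 ratio was lower by at least 1 at HH35 for 120 of the 25291 features and higher by at least 1 for 26. With 1 array per stage, no difference between stages was tested.

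**Figure D3:**
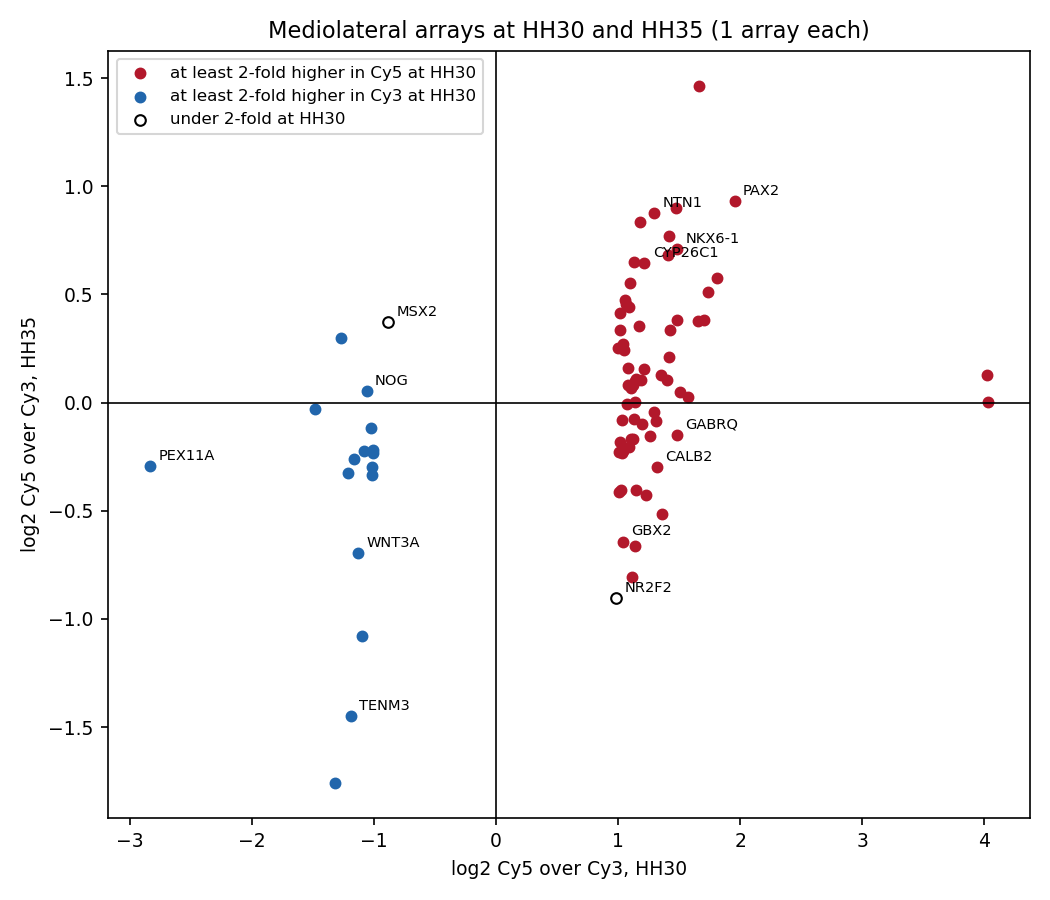
Log2 Cy5 over Cy3 at HH30 (horizontal) and at HH35 (vertical) on the mediolateral arrays, for the 82 features at least 2-fold apart at HH30 and measured at both stages, red for Cy5 and blue for Cy3, with NR2F2 and MSX2 as open circles. Of the red points 42 of 66 lie above 0, and of the blue points 14 of 16 lie below it.

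The anteroposterior arrays give the same genes in pools cut along the other axis, with Cy5 posterior and Cy3 anterior by the dye labels. Pearson's r across features with the HH30 mediolateral array was 0.13 over 27061 features at HH35 and 0.02 over 23263 at HH37. Several genes that led the Cy5 side at HH30 were also high in the posterior pool at HH35. PAX2 stood at 3.0 there, GRP at 2.49, NTN1 at 1.75, SST7 at 1.25 and SIX3 at 1.20. Of the 68 features from the Cy5 side that were measured there, 12 were at least 2-fold higher in Cy5 on the anteroposterior array at HH35, against 0.163% of all, and 1 was so in Cy3, against 0.724%. On the Cy5 side of that array lay 45 of the 68, 66.2%, against 49.2% of all features. Over all features the side was shared by 54.8%. Because the dyes were not swapped, a dye effect shared by both arrays and a difference along both axes cannot be told apart for these genes. On the anteroposterior array at HH37, with the same dye labels, GRP stood at 0.46, SST7 at 0.28, NTN1 at 0.10 and SIX3 at -0.02. PAX2 stood at 0.16 at HH37, with a channel not well above background. Why these values differed from those at HH35 was not tested. TENM3 at -0.18 and WNT3A at 0.20 were close to even on the anteroposterior array at HH35, as were SPON1 at -0.14 and GABRQ at -0.17. At HH37, 17 of 62 of the Cy5 features lay on the Cy5 side, 27.4%, against 44.9% of all features, and the side was shared by 53.6% of all features. There 0 of the 62 were past 2-fold in Cy5, against 0.0559% of all, and 4 in Cy3, against 1.93%.

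**Figure D4:**
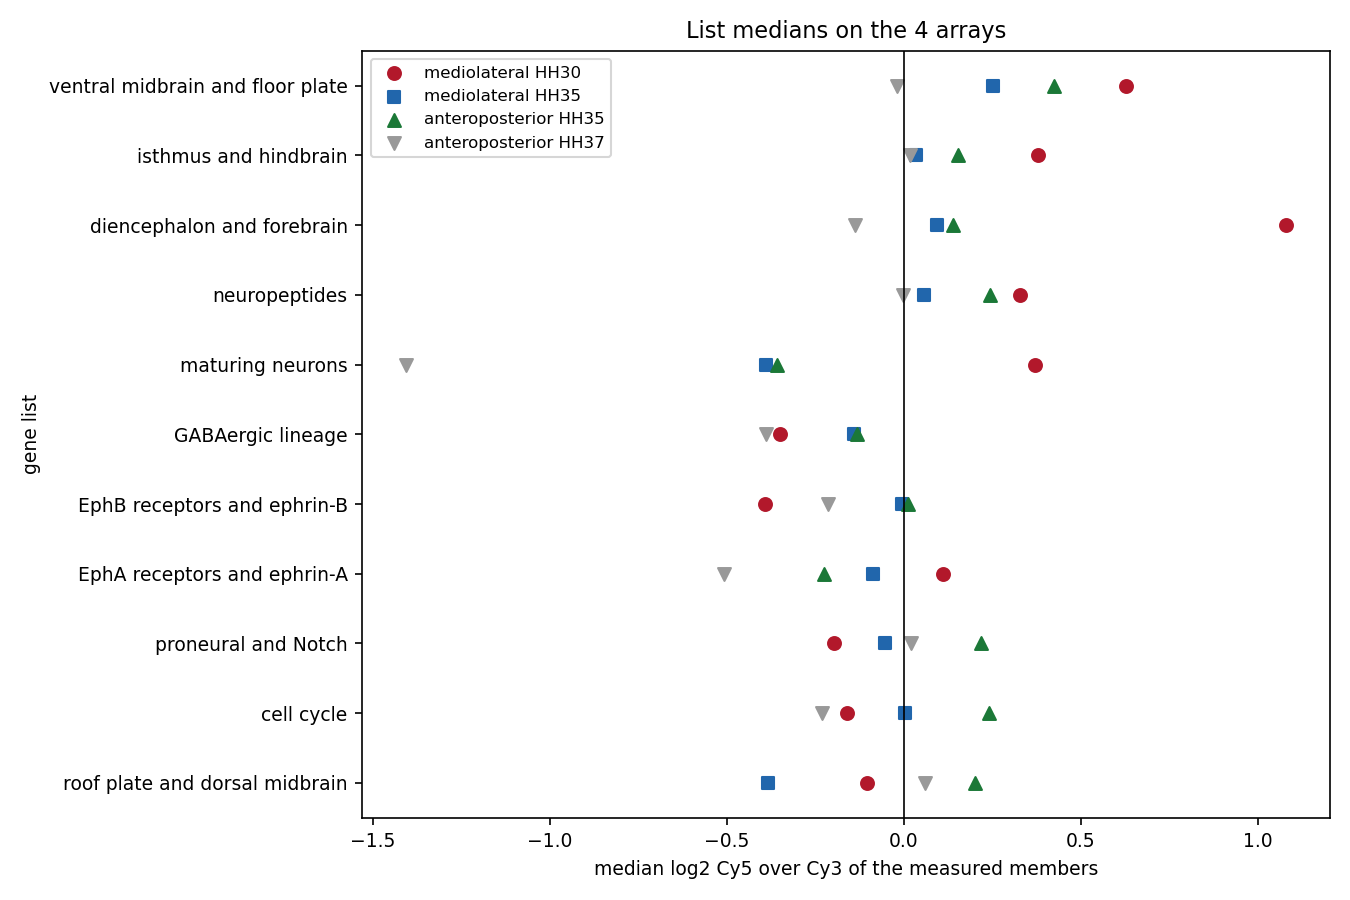
Median log2 Cy5 over Cy3 of the measured members of 11 gene lists on the mediolateral arrays at HH30 and HH35 and the anteroposterior arrays at HH35 and HH37. The forebrain list stands at 1.08 on the mediolateral array at HH30, and the list of maturing neurons stands at 0.37 there and below 0 on the other 3 arrays.

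Some of the furthest ratios came from spots whose pixels were uneven. A spot was taken as uneven where the mean of its pixels was over 2 times their median in either channel, a limit set after the values were seen. This held for 8 of the 76 features past 2-fold in Cy5, for 4 of the 18 in Cy3 and for 0.308% of all measured features. Without uneven spots the counts past 2-fold were 68 in Cy5 and 14 in Cy3. PEX11A had a pixel mean of 100 in Cy5 and 798 in Cy3, but a pixel median of 74 in Cy5 and 71 in Cy3. From pixel medians MYBPC3 stood at 0.11 and FABP9 at 0.57. The unnamed features furthest on the Cy3 side were also uneven. A_87_P040487, with a Cy5 channel not well above background, was at least 3.35-fold higher in Cy3 by pixel means and stood at -0.12 by pixel medians, and A_87_P009582 stood at -1.56 and 0.11. By contrast PAX2 stood at 1.95 by means and 1.97 by medians, NKX6-1 at 1.49 and 1.54, and TENM3 at -1.19 and -1.09. By pixel medians 64 of the 76 and 11 of the 18 features were again past 2-fold on either side.

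The features furthest on the Cy5 side had no symbol. A_87_P041471 was at least 14.3-fold and A_87_P039602 at least 13.6-fold higher in Cy5, with Cy3 not well above background. Their spots were even, but the local background around them in Cy5 was 161 and 554, where the median over the array was 43. On the mediolateral array at HH35 they stood at 0.00 and 0.13, with 1 channel not well above background.

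**Figure D5:**
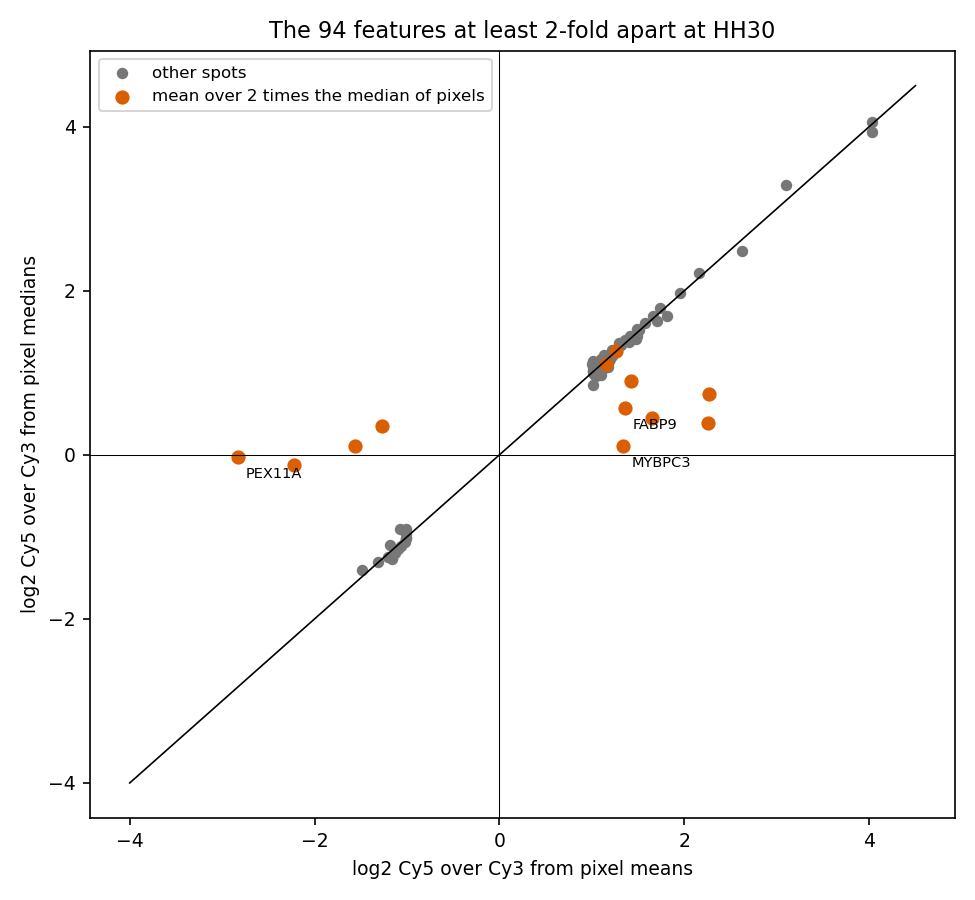
Log2 Cy5 over Cy3 from pixel means (horizontal) and from pixel medians (vertical) for the 94 features at least 2-fold apart at HH30, with the line of equality and uneven spots in orange. The 4 uneven spots on the Cy3 side lie between -2.83 and -1.27 by means and between -0.12 and 0.35 by medians.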

How the data were processed

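Per the labels' protocols, 60 tectal pieces were pooled per channel, RNA was extracted with Trizol, and a core facility labelled and hybridised it. Per the submitters' processing notes the authors' software was Agilent Feature Extraction, although the deposited spot tables have GenePix columns. Per the file headers these give each spot's intensity on a linear scale, a score of signal to noise and its percent of saturated pixels. A comparison table by the authors holds 1 ratio for every probe, and the deposited value table its log2. Their normalisation is not given in the sources used here.

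From the intensities, background was corrected by normexp with an offset of 50 and limma 3.58.1 (R 4.3.3) fitted a loess curve of span 0.3 to the log2 ratios, giving control spots no weight. The GenePix columns took the place of the planned Feature Extraction columns. A probe was measured where at least 1 channel was well above background unless the scanner software had marked the spot as not found (2654 spots). The loess step was tested on simulated data. With 1 array there is no depth or replicate to give an interval, and the number of arrays limits the precision. Where 1 channel was not well above background, the fold is a bound from the mean signal of the other channel over the higher of the lowest signal well above background and the dim channel's own. Intensities include the offset and are not compared between genes.

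Symbols came from the files and, by accession, from a GRCg7b chicken gene table that served for naming alone. They named 10146 probes of 8638 genes, 6 of these probes through their descriptions (GAP43, EN1, EFNA6 and ZIC2 among them). The name and accession of 43 probes conflicted, and these kept no symbol.

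The 29 gene lists, their members and the alternatives were chosen with earlier results of these data known. The genes named are the 15 highest and 15 lowest with a symbol, all measured members of 7 lists, up to 4 furthest from 0 of each other list, the 4 with the greatest rise and fall to HH35, and 2 unnamed features per side, 174 in all. Some of these are not reported here. DMBX1 and MEIS2 are named beside these as tissue markers, and 9 further genes past 2-fold are marked as such in the text. The 2 measured choroid plexus genes, AQP1 and FOLR1, stood at -0.15 and -0.01. Alternatives covered 12 processing choices and both other thresholds, and leaving out uneven spots was added after seeing the data. Tables were made with pandas 2.3.3 and numpy 2.4.6 in Python 3.11.15, and plots with matplotlib 3.10.9.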

Additional observations from a re-analysis of the deposited data

Results flagged for a closer look

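GBX2 and NR2F2 lay on opposite sides of 0 on the mediolateral arrays at HH30 and HH35, beyond 0.5 on the log2 scale in both. GBX2 stood at 1.04 at HH30 and -0.64 at HH35. NR2F2 stood at 0.98 at HH30 and -0.91 at HH35. The difference between the stages was not tested, since each stage had 1 array. Such opposite values were found for 26 of the 25291 features measured at both stages, 0.103%. On the anteroposterior array at HH35, GBX2 stood at -0.25 and NR2F2 at -0.93.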

How the results depend on the processing

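No paired analysis was possible because each group is 1 array and no result comes from a test. There were 13 alternatives to the main setting, 12 planned and 1 added. The planned ones included subtraction of the anteroposterior mean, which draws on the other arrays. The medians of the dorsal, ventral, isthmic, forebrain, EphB, neuropeptide, proneural, cell cycle and maturing neuron lists kept their sign in all 13. The neuropeptide median of 0.33 fell to 0.04 with the anteroposterior mean subtracted. The 76 features past 2-fold in Cy5 became 187 with plain subtraction, 167 with normexp at offset 0, 259 in the value table, 405 with the anteroposterior mean subtracted, 420 at 1.5-fold and 13 at 3-fold. The 18 in Cy3 became 207, 129, 648, 108, 335 and 2 in the same order, and 30 with median centring. The share on the same side at HH35 of the Cy5 features, 63.6%, became 94.6% with the anteroposterior mean subtracted and 100% at 3-fold. The subtracted mean is a term shared by both mediolateral arrays and draws them to the same side. Shares under this setting therefore cannot show whether the stages agree. That of the Cy3 features, 87.5%, became 61.7% in the value table and 100% both with the mean subtracted and at 3-fold. At 3-fold the Cy3 share rests on PEX11A alone, an uneven spot, since A_87_P040487 was not measured at HH35. Not all of the 13 Cy5 features past 3-fold were measured at HH35. Those that were included A_87_P041471 at 0.00 and A_87_P039602 at 0.13, each with a channel not well above background at HH35. They also included A_87_P004746, an uneven spot at HH30. On the anteroposterior array at HH35, 7 of the 16 measured Cy3 features, 43.8%, lay on the same side. For these features the same side is the Cy3 side, where 16577 of all 32094 features measured on that array lay. The 43.8% became 54.1% with offset 0, 56.2% with pixel medians and 67.9% with median centring. At HH37 the share on the Cy3 side was 6 of 14, 42.9%, and it became 53.8% with median centring. Of all 25487 features measured on the array at HH37, 13382 lay on the Cy3 side. Both Cy3 shares rest on few features, so small counts move them. The share of Cy5 features at HH37, 27.4%, became 43.3% in the value table and 42.5% with no filter on dim probes. The dorsal median of -0.10 became -0.26 in the value table and -0.31 with the anteroposterior mean subtracted. The ventral median of 0.63 became 0.88 with plain subtraction, 0.87 with offset 0, 1.19 in the value table and 0.31 with the anteroposterior mean subtracted. The median of the GABAergic lineage list turned to 0.0939 with the anteroposterior mean subtracted, PEX11A to 0.14 in the value table, and A_87_P009582 to 0.11 with pixel medians and 0.13 in the value table. Apart from the shared subtracted term, the cause of these shifts was not tested. Of 174 named features, between 137 and 174 kept their sign per setting where all were measured. Dim Cy5 channels limit the ratios of weak probes.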
